A study of Mus musculus with 14 samples.

Results

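Splicing factors and small nuclear ribonucleoprotein (snRNP) proteins were followed in the livers of male Apoe-deficient C57BL/6 mice fed a Western diet without or with erythrodiol. The genes were those whose symbol in the deposited gene table begins with Hnrn, Srsf and a digit, Snrp, Sf3a, Sf3b or Prpf, and 66 of 17552 genes met this rule. No measured value enters the rule, but it was chosen with earlier results of these data known. The 66 genes comprised 21 heterogeneous nuclear ribonucleoprotein (hnRNP) genes, 11 serine and arginine rich (SR) protein genes, 12 snRNP protein genes, 9 genes of splicing factor 3 (SF3) and 13 genes of the Prpf series. All 66 genes were found in RefSeq on GRCm38, spread over 18 chromosomes.

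Both groups carried the Apoe deficiency, which is constitutive and not restricted to the liver, and both received the same purified Western diet. The control group had this diet alone, and the erythrodiol group had it with erythrodiol, a triterpene alcohol of the olive, at 10 mg/kg. The labels give mice of 8 weeks of age and 8 weeks of diet, while the methods of the study give a longer time on the diets. Each of the 7 control and 7 erythrodiol libraries was made from poly-A RNA of a pool of livers, so a library averages over the mice of its pool and the spread between mice is not seen.

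Splicing removes introns from the primary transcript. It is carried out by the spliceosome, in which the U1 snRNP marks the 5′ splice site, the U2 snRNP with its SF3a and SF3b complexes settles on the branch point, and the U4/U6.U5 tri-snRNP, held together by several Prpf proteins, brings in the catalytic centre. A ring of small Sm proteins forms the shared core of the U1, U2, U4 and U5 particles. SR proteins bind mainly to exons and recruit the machinery, while hnRNP proteins coat the transcript and often oppose the use of a site. Many SR and hnRNP proteins limit their own amount by splicing a so-called poison exon, with an early stop codon, into their transcript, which then goes to nonsense-mediated decay.

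The deposited gene table holds 1 expected count for a gene in each group, the sum over its 7 libraries, and the columns total 122889032 in the control and 124686047 in the erythrodiol group. A log2 ratio below is the log2 of the erythrodiol over the control count, after 0.5 counts were added to each and the columns were scaled to equal totals. A log2 ratio of about 0.32 or more above or below 0 was counted as past the fold threshold. As each gene had 1 pooled value per group, there were no replicates, no test across genes was possible, and the 95% intervals in brackets cover counting error only. CPM are counts scaled to a column total of 1000000, and a level is the CPM divided by the length of the gene in kilobases.

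The libraries differed in quality within the control group. Control libraries had 34856340 to 55244294 clean reads, of which 41.6 to 69.1% mapped uniquely to the genome. Erythrodiol libraries were more alike, with 47669656 to 48058606 clean reads and 64.0 to 68.0% mapped uniquely. The 3 control libraries with under 60% uniquely mapped reads, replicates 1, 3 and 4, stood apart. Their part in the group sums cannot be removed, as these are not split by library, so every gene value below contains them, and their part in the gene results was not tested. Apoe itself had 76.5 CPM in the control and 66.5 in the erythrodiol group. The sources used here do not say which exons these reads cover, so they do not check the genotype.

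Summed markers of hepatocytes (Apob, Alb, Ttr, Serpina1a, Tat and Cyp3a11) were at 99910 CPM in the control and 99550 in the erythrodiol group, a sum made up mostly of Alb, and 2 of 6, Apob and Tat, were higher past the fold threshold, with log2 ratios of 0.35 and 0.38. Markers of some other cells, but not of all, moved with the groups. For comparison, 24.3% of all genes with at least 100 counts were higher and 8.86% lower past the threshold. The 7 Kupffer cell markers summed to 472 and 334 CPM, with 5 of 7 lower past the fold threshold, and the 5 bile duct markers to 116.4 and 79.06, with 3 of 5 lower. Neutrophil markers summed to 12.66 and 4.936, with all 3 of those with at least 100 counts lower past the fold threshold, and lymphocyte markers to 32.22 and 27.33, with 2 of 6 lower. Markers of stellate cells, at 525 and 498.4, had 0 of 6 past the fold threshold in either direction. Those of sinusoidal endothelium summed to 181.9 and 197.1, with 1 of 6 higher. No listed marker was at 0 in either group. In these bulk samples, fewer cells of a type and less RNA per cell cannot be told apart, and the part of other cells in the values of the splicing genes was not tested.

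Of the 66 genes, 64 had at least 100 counts in the groups together, from 962.5 to 25700 in the control. Srsf12 had 3 and 9 counts and the pseudogene Hnrnpa1l2-ps2 had 2.72 and 1.03, so both were left out of the summaries. The log2 ratio was above 0 for 50 genes and below 0 for 14, with a median of 0.21. Past the fold threshold, 17 of 64 were higher with erythrodiol, a share of 26.6% against 24.3% of the 13291 genes with at least 100 counts. Another 8 were lower, 12.5% against 8.86% of all genes. None of the 64 differed by 2-fold or more, as 0.218% of all genes did upwards and 0.549% downwards. The shares of splicing genes past the fold threshold were therefore near those of all genes. The counting interval lay above 0 for 48 genes and below 0 for 11, and it included 0 for 5.

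Gene length moved with the log2 ratio over the whole table. The median log2 ratio of all genes was 0.16, and it ran from −0.18 among genes of 333 to 1210 bases to 0.33 among those of 6115 to 26655 bases. Across genes, Spearman's rho between length and log2 ratio was 0.43 over all 13291 genes and 0.51 over the 64 splicing genes, whose values share the same libraries and which are not independent replicates. The 15 splicing genes shorter than 1500 bases had a median log2 ratio of −0.31, and the 49 longer ones had 0.24. All genes divided at the same length had medians of −0.09 and 0.20, so the division by length was of the same direction there. What sets the length trend was not tested.

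Each gene was therefore also compared with the median of the 200 genes nearest to it in length, 100 on each side except at the ends of the length range, where the 200 genes at that end were taken. Its log2 ratio minus that median is called the length-matched ratio below. The median length-matched ratio of the 64 genes was 0.07. Past the fold threshold, 4 were higher, a share of 6.25% where 6.24% of all genes were. Another 5 were lower, or 7.81%, where 13.5% of all genes were. On this scale 39 genes lay within the quartiles of the genes of their length, 17 above and 8 below, while 25.3% of all genes lay above and 25.3% below.

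**Figure D1:**
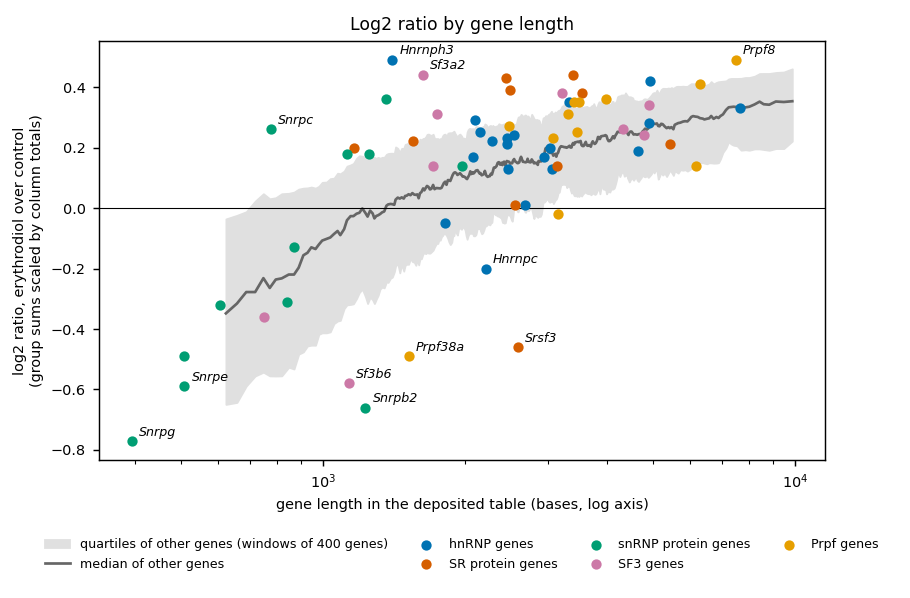
Log2 ratio of erythrodiol over control (vertical axis, group sums scaled by column totals) against the gene length in bases on a log axis, for the splicing genes with at least 100 counts that are reported here, coloured by family. The grey band and line give the quartiles and median of the other genes, which run upwards with length, and Snrpb2, Sf3b6, Prpf38a and Srsf3 lie below the band while Snrpc, Hnrnph3 and Sf3a2 lie above it.

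The snRNP protein genes had the lowest family median. Of 12 genes, 4 were lower past the fold threshold (Snrpg, Snrpb2, Snrpe and Snrpd2) and 1 was higher (Snrpa), and the median log2 ratio was −0.22. These are also the shortest genes, with a median length of 853 bases. Their median length-matched ratio was −0.01, with 2 genes higher and 2 lower past the threshold on that scale. The 4 lower genes were 33.3% of the family, where 30.5% of all genes under 1500 bases were lower. For the counts of families here and below, 24.3% of all genes were higher and 8.86% lower. On the length-matched scale the shares of all genes were 6.24% and 13.5%.

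The Sm ring genes made up most of this pattern. Snrpg, at 393 bases (chromosome 6, 86371540 to 86378902, GRCm38), had 1802 control and 1073 erythrodiol counts, a log2 ratio of −0.77 [−0.88, −0.66]. Snrpe had 2244 and 1513 counts (−0.59 [−0.68, −0.49]). Snrpd2 had 3371 and 2438 counts (−0.49 [−0.56, −0.41]). These 3 genes are the shortest of the 64, none longer than 508 bases. Snrpd3 and Snrpd1 had log2 ratios of −0.32 and −0.31, and Snrpf had −0.13 with an interval reaching 0. Against genes of their length, Snrpd1, Snrpd2, Snrpd3, Snrpe and Snrpf had length-matched ratios between −0.16 and 0.08 and lay within the quartiles. Snrpg was at −0.34, below the lower quartile, but it lies at the short end of the table, and its comparison genes, the same 200 of 333 to 622 bases as for Snrpd2 and Snrpe, are mostly longer than it. Snrpb, at 4536 and 5199 counts, was the Sm gene above its quartiles, with a log2 ratio of 0.18 and a length-matched ratio of 0.24. Snrpn, the imprinted relative of Snrpb, had 1059.49 and 1184.04 counts and a length-matched ratio of 0.03. Its counts were not whole numbers, since reads shared with other genes were divided between them.

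The proteins that belong to U1 or U2 alone went different ways. Snrpc, which steadies the pairing of U1 with the 5′ splice site, had 2205 and 2673 counts, a log2 ratio of 0.26 [0.17, 0.34]. This was the largest length-matched ratio of the 64 genes, at 0.54, as genes of its length had a median of −0.28. Snrpa, which binds a stem-loop of U1 RNA, had 2846 and 3699.85 counts and a log2 ratio of 0.36 [0.29, 0.43], with a length-matched ratio of 0.37. Snrnp70, another protein specific to U1 and not part of the symbol rule, had 5428 and 7197 counts, a log2 ratio of 0.39 [0.33, 0.44] and a length-matched ratio of 0.35. In U2, Snrpb2, a relative of Snrpa on chromosome 2 (143063069 to 143072052), had 2105 and 1355 counts, a log2 ratio of −0.66 [−0.76, −0.56]. Its length-matched ratio was also −0.66, the lowest of all 64 genes. Its partner Snrpa1 had 1152 and 1326 counts and a length-matched ratio of 0.21. Thus the 3 proteins specific to U1 had higher counts with erythrodiol on each scale, and those of U2 were divided.

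SF3 genes encode the subunits that sit on the branch point region within U2. The median log2 ratio of the 9 genes was 0.26 and the median length-matched ratio was 0.07. All 3 SF3a genes were above 0. Sf3a2, at 2221 and 3056 counts, had a log2 ratio of 0.44 [0.36, 0.52] and a length-matched ratio of 0.39. Sf3a1, with 2867 and 3692 counts, had a log2 ratio of 0.34 that was near the median of its length, and Sf3a3, with 1439 and 1613, had 0.14. The SF3b complex was divided. Sf3b1, the large scaffold that is often mutated in myeloid disease, had 14282 and 17118 counts and a log2 ratio of 0.24 [0.21, 0.27], with a length-matched ratio of −0.01. Sf3b2 had 9221 and 12143 counts and a log2 ratio of 0.38, and Sf3b3 and Sf3b4 had 0.26 and 0.31. The small subunits within the symbol rule, Sf3b6 and Sf3b5, were lower, which does not speak for small subunits outside it. Sf3b6, which touches the branch point adenosine, had 3625 and 2467 counts, a log2 ratio of −0.58 [−0.65, −0.50] and a length-matched ratio of −0.51. Sf3b5 had 2089 and 1652 counts and a log2 ratio of −0.36, of which −0.10 was left against genes of its length.

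Prpf genes encode proteins of the tri-snRNP, of the U1 particle and of the later steps. Their median log2 ratio was 0.27, with 5 of 13 genes higher past the fold threshold and 1 lower, and the median length-matched ratio was 0.09, with 0 higher and 1 lower. Prpf8, the core protein of the U5 particle around which the catalytic centre is built, had 22700 and 32439 counts and a log2 ratio of 0.49 [0.47, 0.52]. It is one of the long genes, and its length-matched ratio was 0.16. Prpf4 and Prpf3, partners in the U4/U6 particle, had 1333 and 1731 and 1097 and 1345 counts, with length-matched ratios of 0.13 and 0.12. Prpf6, the bridge between U5 and U4/U6, had 5277 and 6263 counts and a length-matched ratio of 0.08. Prpf31, which also joins these particles, had 1337 and 1342 counts, a log2 ratio of −0.02 [−0.13, 0.09] and a length-matched ratio of −0.22, below the lower quartile. Among the U1-associated proteins, Prpf39 and Prpf40b each had a length-matched ratio of 0.14. The kinase gene Prpf4b had 6589 and 8880 counts and a log2 ratio of 0.41, with 0.09 left after matching for length. Prpf38a, a protein of the complex that forms before activation, was the exception. On chromosome 4 (108564867 to 108579336), it had 1084 and 783 counts, a log2 ratio of −0.49 [−0.62, −0.36] and a length-matched ratio of −0.53. Its relative Prpf38b had 4542 and 5696 counts and a log2 ratio of 0.31. Prpf19, a ubiquitin ligase of the catalytic complex, had 11470 and 12850 counts and a length-matched ratio of −0.16, and Prpf18, of the second catalytic step, had 0.03.

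SR protein genes had the highest family median on the length-matched scale, at 0.16, and a median log2 ratio of 0.21. As a log2 ratio of summed counts the family had 0.08 by length, below SF3 at 0.16, Prpf at 0.11 and snRNP at 0.10, so this order holds for the median of genes alone. Of the 10 genes with at least 100 counts, 4 were higher past the fold threshold on column totals and 1 was lower, and on the length-matched scale 0 were higher and 1 lower. Srsf5, a factor first described as an insulin-induced RNA of liver cells, had the highest level per kilobase of all 66 genes, 96.2 in the control and 112 in the erythrodiol group, with a log2 ratio of 0.22. The genes past the fold threshold upwards were Srsf11, Srsf4, Srsf2 and Srsf6. Srsf11 had 7824 and 10733 counts (log2 ratio 0.44 [0.39, 0.48]). Srsf4 had 4705 and 6449 counts (0.43 [0.38, 0.49]). Their length-matched ratios were 0.23 and 0.30. Srsf2, which helps to define exons, had 12229 and 16252 counts, and Srsf6 had 11545 and 15224, with length-matched ratios of 0.23 and 0.15. Srsf1, the founding SR protein, had 9493 and 11105 counts and a length-matched ratio of −0.06. Srsf9, a short gene, had a log2 ratio of 0.20 and a length-matched ratio of 0.21. Srsf10 and Srsf7 had log2 ratios of 0.14 and 0.01.

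Srsf3 stood on the other side of its family. It encodes a small SR protein that shuttles to the cytoplasm and takes part in RNA export, and it lies on chromosome 17 (29032660 to 29043372). The counts were 7069 without and 5224 with erythrodiol, a log2 ratio of −0.46 [−0.51, −0.41]. The length-matched ratio was −0.62, as genes of its 2585 bases had a median of 0.17. Of the 10 SR genes, Srsf3 alone had a log2 ratio below 0, and the other 9 ranged from 0.01 to 0.44.

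hnRNP genes were the most even family. The median log2 ratio of the 20 genes with at least 100 counts was 0.21, with 4 higher and 0 lower past the fold threshold, the median length-matched ratio was 0.02, and 16 of 20 genes lay within the quartiles of their length. Hnrnpk, which binds runs of cytidine, had the highest control count of the 66 genes, 25700, and 30859 counts with erythrodiol, at a log2 ratio of 0.24 [0.22, 0.27]. Hnrnpa2b1, which takes part in RNA transport, had 15381 and 19031 counts and a log2 ratio of 0.29. Hnrnpa3 had 23703 and 27421 counts (0.19), and Hnrnpu, a nuclear scaffold protein, had 24427.24 and 30122.49 (0.28). With the length of each gene taken into account, these ratios lay between −0.05 and 0.17. Hnrnpf, which binds runs of guanosine, had 17827.68 and 21081 counts and a length-matched ratio of 0.10, while its relatives Hnrnph1 and Hnrnph2 had 0.04 and 0.10. Hnrnph3, the hnRNP gene with the lowest control count of those left in the summaries, had 962.5 and 1372.92 counts, a log2 ratio of 0.49 [0.37, 0.61] and a length-matched ratio of 0.48. Part of its reads was shared with other genes. Hnrnpul1 and Hnrnpul2 had log2 ratios of 0.35 and 0.42 and length-matched ratios of 0.16 each. Hnrnpd, known for binding AU-rich elements, had a log2 ratio of 0.33 that equalled the median of genes of its length.

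Hnrnpc and Hnrnpa1 were the hnRNP genes with a log2 ratio below 0. Hnrnpc, which measures and packages nascent transcripts through their uridine tracts (chromosome 14, 52073377 to 52104039), had 12957 and 11406 counts, a log2 ratio of −0.20 [−0.24, −0.17] and a length-matched ratio of −0.31. Hnrnpa1, a repressor of many exons with numerous processed pseudogenes, had 5776.28 and 5672.97 counts and a log2 ratio of −0.05 [−0.10, 0.01]. Its counts were not whole, so reads were divided between genes, and which genes shared them is not shown by the table. In all, 13 of the 66 genes had counts that were not whole in at least 1 group.

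**Figure D2:**
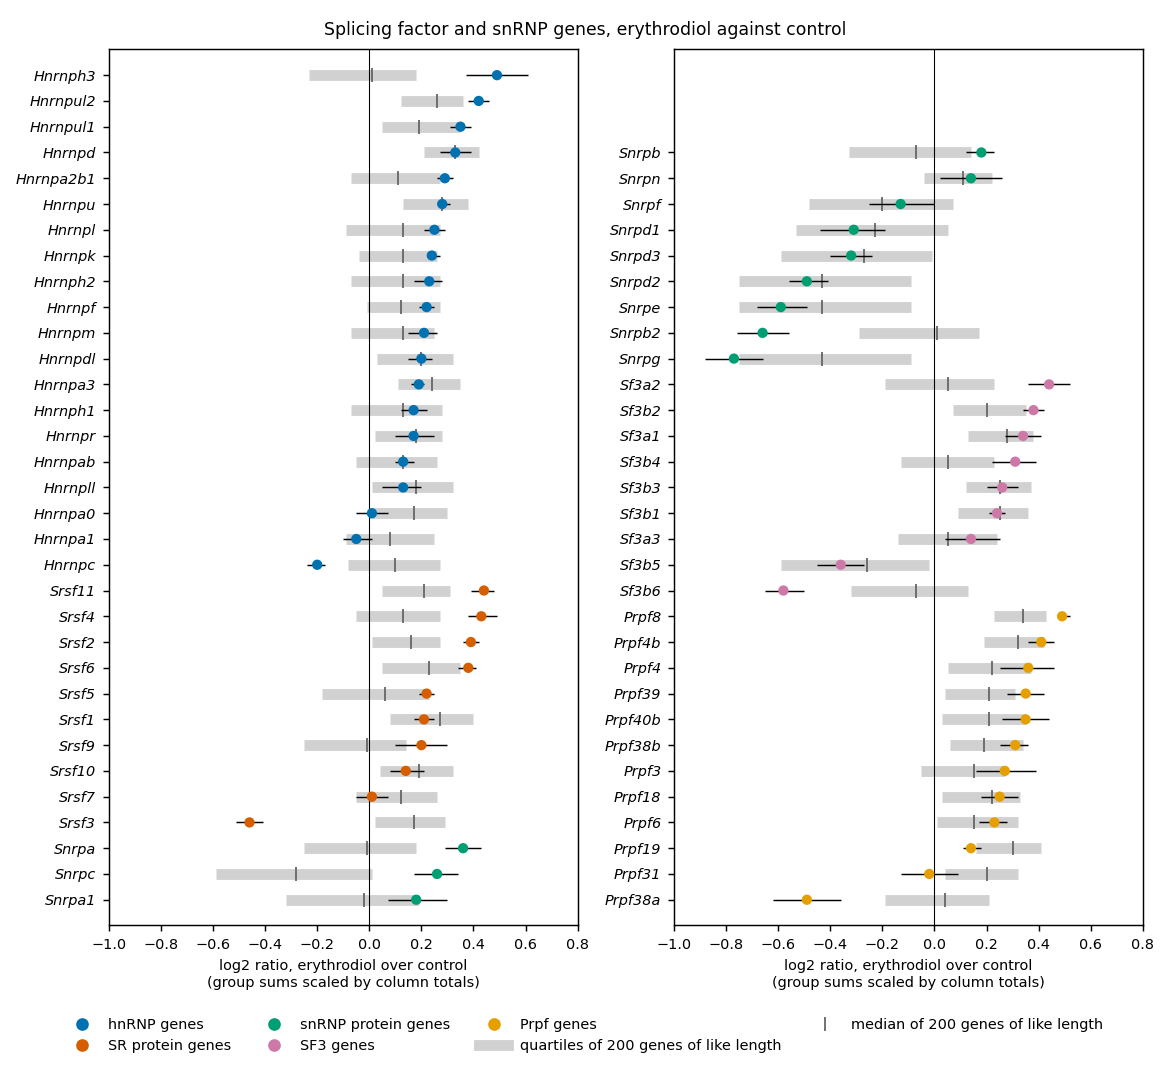
Log2 ratio of erythrodiol over control (horizontal axis, group sums scaled by column totals) for the splicing genes with at least 100 counts that are reported here, sorted within families. Points carry 95% counting intervals, grey bars and ticks give the quartiles and median of the 200 genes nearest in length, and Srsf3, Snrpb2, Sf3b6 and Prpf38a sit to the left of their bars, while Snrpc, Snrpa, Hnrnph3 and Sf3a2 sit to the right.

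Other spliceosome genes, outside the symbol rule, were described by 10 lists. Of 189 listed genes in the table, 184 had at least 100 counts, and their median log2 ratio was 0.24 and median length-matched ratio 0.09. Past the fold threshold, 63 were higher (34.2%, against 24.3% of all genes) and 14 lower (7.61% against 8.86%). On the length-matched scale 10 were higher past the fold threshold (5.43% against 6.24%) and 13 lower (7.07% against 13.5%). At this threshold, no share of higher genes above that of all genes was left. Short of it, 71 of the 184 lay above the quartiles of the genes of their length, 24 below and 89 within. Of all genes, 25.3% lay above and 25.3% below. The length-matched ratio was above 0 for 121 and below 0 for 63.

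By the median log2 ratio on column totals, which follows gene length, 4 lists lay highest, and on the length-matched scale this order did not hold. There, branch point recognition had 0.16, SR-related proteins 0.13, and both the SR kinases and the Prp19 list 0.10. For the counts of list genes from here on, 24.3% of all genes were higher and 8.86% lower past the fold threshold. On the length-matched scale the shares of all genes were 6.24% and 13.5%. SR-related proteins had a median log2 ratio of 0.36, with 14 of 24 genes higher past the fold threshold and 0 lower, but 1 higher (4.17%) and 0 lower on the length-matched scale. Among them Srrm1, a coactivator that bridges SR proteins and the machinery, had 6304 and 9148 counts (log2 ratio 0.52), and Rsrp1 had 11793 and 17745 (0.57), while Rsrc2 had 3547 and 3116 (−0.21). The kinases, phosphatases and importers of SR proteins had a median of 0.33, with 6 of 10 higher and 0 lower, and 0 past the threshold in either direction on the length-matched scale. Clk2, a kinase of SR proteins, had 1355.17 and 1860.01 counts (0.44), Srpk1 had 1683 and 2201 (0.37), and Clk1 had 6079 and 6361 (0.04). Proteins of branch point and 3′ splice site recognition had a median of 0.30, with 5 of 15 higher (2 by length), and U2af1, which reads the 3′ splice site, had 2820 and 3255 counts and a length-matched ratio of 0.36. Sequence-specific regulators had a median of 0.24, with 18 of 45 higher and 0 lower, while the length-matched median was 0.08 with 1 higher and 2 lower. Among them Pspc1 had a log2 ratio of −0.24 and Matr3 of −0.17, and Taf15 and Khsrp had 0.49 and 0.52. Of these 4 lists, none had a gene lower past the fold threshold on the scale of column totals, and the 2 genes lower by length were regulators.

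The other 6 lists had lower medians on the scale of column totals. The LSM list, which holds the proteins of the U6 ring and others, had a median log2 ratio of −0.21, with 0 of 11 higher and 5 lower. Its median length-matched ratio was −0.19, with 1 higher and 3 lower. LSM genes are short, with a median length of 880 bases, and 30.5% of all genes under 1500 bases were lower on column totals. Lsm8, the subunit that makes the ring nuclear, had 736 and 380 counts and a log2 ratio of −0.97 [−1.16, −0.79], while Lsm2 had 1105 and 1378 counts (0.30). Exon junction complex genes had a median of 0.00, with 2 of 9 higher and 3 lower, from Magohb at −0.79 and Alyref at −0.51 to Casc3 at 0.37 and the helicase gene Eif4a3 at 0.40. The SMN complex, which loads Sm rings on snRNA, had a median of 0.10, with 4 of 15 higher and 2 lower. In it, Smn1 had 670.99 and 851 counts (0.32), Gemin6 577 and 400 (−0.55) and Strap 10124 and 8316 (−0.30). Minor spliceosome proteins had a median of 0.08, with 0 of 11 higher and 1 lower, Snrnp25 at 298 and 161 counts (−0.91). The remaining U1, U2, U5 and tri-snRNP proteins had a median of 0.23, with 3 of 15 higher and 1 lower, Ppih at 1061 and 711 counts (−0.60). The Prp19 complex and catalytic step had a median of 0.23, with 11 of 29 higher and 2 lower, with Plrg1 at −0.34 and Bud13 at 0.65 among them, and 1 higher and 1 lower by length. By length, the exon junction list had 1 higher and 2 lower, and the SMN list 1 higher and 3 lower. The minor spliceosome list and that of the remaining U1, U2, U5 and tri-snRNP proteins each had 1 higher and 1 lower.

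New transcripts assembled from the splicing genes were described as well. The authors deposited new coding transcripts, built from the reads of all libraries together, so that no value per group or library can be given. Of the 66 genes, 29 (43.9%) had 78 new coding transcripts. Among other genes 28.4% had at least 1, and among the 8246 other genes within the range of counts of the 64 splicing genes, 1867 to 56559 in the groups together, 41.7% did, a share near that of the splicing genes. By family, 13 of 21 hnRNP genes had 43 new transcripts, 8 of 11 SR genes had 20, 6 of 13 Prpf genes had 12, 2 of 9 SF3 genes had 3, and 0 of 12 snRNP protein genes had any. Hnrnpk had the most, 7, followed by Hnrnph1 and Hnrnph3 with 6 each and Hnrnpd with 5. In these counts the families were only described, with no test.

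Compared with the GENCODE M21 annotation of GRCm38, most of these transcripts were made up of known splice junctions alone. Of the 76 transcripts on chromosomes, 60 (78.9%) used only splice junctions present in GENCODE, against 36.0% of 11193 new transcripts of other genes, which were not matched for counts here or in the shares that follow. In 10 of them (13.2%, others 5.16%) the whole chain of introns was that of a GENCODE transcript, of which 5 were annotated as nonsense-mediated decay, 3 as protein coding and 2 as retained intron. An internal exon that spanned an annotated intron, as when an intron is retained, was found in 26 (34.2%, others 13.0%). SR genes contributed 12 of these 26, which was 63.2% of their 19 transcripts, in Srsf2, Srsf3, Srsf5, Srsf7 and Srsf11. All 3 new transcripts of Srsf3 were of this kind.

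An internal exon annotated by GENCODE in nonsense-mediated decay transcripts and in no protein-coding transcript was present in 12 new transcripts (15.8%, others 6.83%) of 9 genes. These were 14 exons of 46 to 739 bases, 8 of them with a length that is not a multiple of 3. Such a length shifts the reading frame only where the exon lies before the stop codon, and some of the exons lie after an annotated stop. For 6 exons, 1 each in Hnrnpl, Hnrnpll, Prpf39, Prpf4b, Srsf11 and Srsf4, GENCODE places the stop codon inside the exon. A stop codon inside such an exon need not be an early one. In Prpf4b the frame runs through 204 bases of the exon, stop codon included. Whether any of the 6 is the usual stop of its protein was not tested. The exon sequences of 4 SR and hnRNP genes are given from the first base to the end of the stop codon, which is in capitals, as they show the point at which the reading frame ends in this kind of transcript. They are reference sequence of GRCm38, and the coordinates are those of the whole exon. The Srsf4 exon is chr4:131884276-131884482 on the plus strand, 207 bases long. The Srsf11 exon is chr3:158023243-158023359 on the minus strand, 117 bases long. The Hnrnpl exon is chr7:28817335-28817404 on the plus strand, 70 bases long, and the Hnrnpll exon is chr17:80044940-80045022 on the minus strand, 83 bases long.
Srsf4: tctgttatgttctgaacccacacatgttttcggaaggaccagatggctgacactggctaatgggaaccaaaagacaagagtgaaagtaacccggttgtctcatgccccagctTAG
Srsf11: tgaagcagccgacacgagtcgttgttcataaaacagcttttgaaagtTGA
Hnrnpl: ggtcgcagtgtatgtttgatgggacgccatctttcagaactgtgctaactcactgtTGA
Hnrnpll: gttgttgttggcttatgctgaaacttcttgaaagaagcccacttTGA

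The stop codon is completed after 115 bases of the Srsf4 exon, 50 of the Srsf11 exon, 59 of the Hnrnpl exon and 47 of the Hnrnpll exon. The new Srsf4 transcript held 3 exons of this kind, the others at positions 131885309 to 131885492 and 131886131 to 131886304. The new Hnrnpll transcript had the intron chain of the annotated decay transcript Hnrnpll-203. In Prpf4b, each of its 3 new transcripts held the exon at chromosome 13, 34901393 to 34902131, the longest of the 14. In the tables of events that differed between the groups, 16 events passed the filter of the authors, of which 0 lay in the 66 genes and 1, a retained intron, in a listed gene, Srrm1. With 16 events for 17552 genes, few or none would fall in 66 genes in any case, so the 0 is no result about them.

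**Figure D3:**
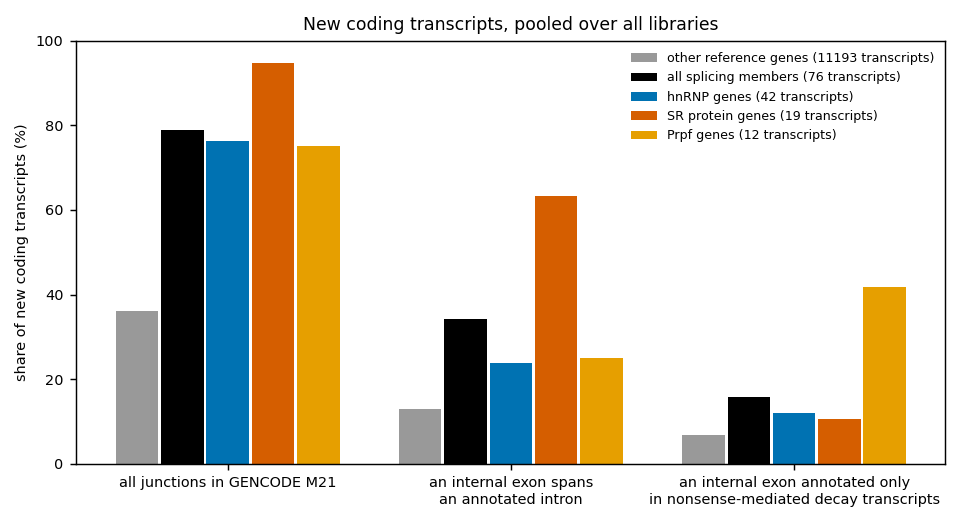
Share of new coding transcripts, in percent, with all junctions in GENCODE M21, with an internal exon that spans an annotated intron, and with an internal exon annotated in nonsense-mediated decay transcripts alone. Bars stand for other genes, all splicing genes and 3 of their families, pooled over all libraries and thus without error, and the splicing genes exceed other genes in each class, at 78.9 against 36.0%, 34.2 against 13.0% and 15.8 against 6.83%.

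The splicing events called per library, over all genes, give the number of events detected. They do not measure how often each event was used, so they do not show whether the output of splicing differed between the groups. Control libraries had 12381 ± 2747 events in total and erythrodiol libraries 13892 ± 502 (SD, n = 7 each), a difference of 1511 that the spread between libraries covered (two-sided exact permutation test, p = 0.184). The erythrodiol libraries ranged from 13251 to 14801 with a median of 13808, and the control libraries from 8578 to 15153 with a median of 13412. The groups overlapped: control replicates 1, 3 and 4, at 8578, 9620 and 10489 events, were below every erythrodiol library, and 2 control libraries were above every one. These are the 3 libraries with the lowest shares of uniquely mapped reads, at 55.27, 41.62 and 56.16%. Without them, the control mean was higher than the erythrodiol mean, by a difference of −603 events (exact permutation test, p = 0.145, 4 control and 7 erythrodiol libraries). The direction of the total thus rested on the 3 libraries.

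Skipped exons, the most frequent type, numbered 6432 ± 1526 in control and 7179 ± 344 in erythrodiol libraries (SD, n = 7 each). Retained introns numbered 1504 ± 266 and 1688 ± 20.1, alternative 5′ sites 1568 ± 368 and 1789 ± 42.8, alternative 3′ sites 2181 ± 522 and 2503 ± 62.6, and mutually exclusive exons 696 ± 102 and 732 ± 48.8. The groups overlapped in each type, and the lowest adjusted p over the 5 types was 0.29 (exact permutation test, Benjamini-Hochberg). Without the 3 libraries the differences were −409, −12.8, −62.6, −78.6 and −40.6 events, in the same order, with adjusted p from 0.269 to 0.482 in the exact permutation test.

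The share of each type among the events of a library was compared as well. Skipped exons made up 51.8 ± 1.90% of the events in control and 51.7 ± 0.622% in erythrodiol libraries, and retained introns 12.3 ± 1.03% and 12.2 ± 0.300% (SD, n = 7 each). Mutually exclusive exons made up 5.72 ± 0.614% and 5.27 ± 0.204%, a difference of −0.456 percentage points (exact permutation test, p = 0.0583, adjusted p = 0.224), with 3 control libraries above and 0 below every erythrodiol library. Alternative 5′ sites made up 12.6 ± 0.291% and 12.9 ± 0.234%, a difference of 0.256 points (exact permutation test, p = 0.0897, adjusted p = 0.224). Alternative 3′ sites made up 17.6 ± 1.06% and 18.0 ± 0.292% (adjusted p = 0.514 in the exact permutation test). None of the 5 shares passed the threshold of 0.05. The events come from the same libraries as the gene sums, and the relation of events to splicing genes was not tested.

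**Figure D4:**
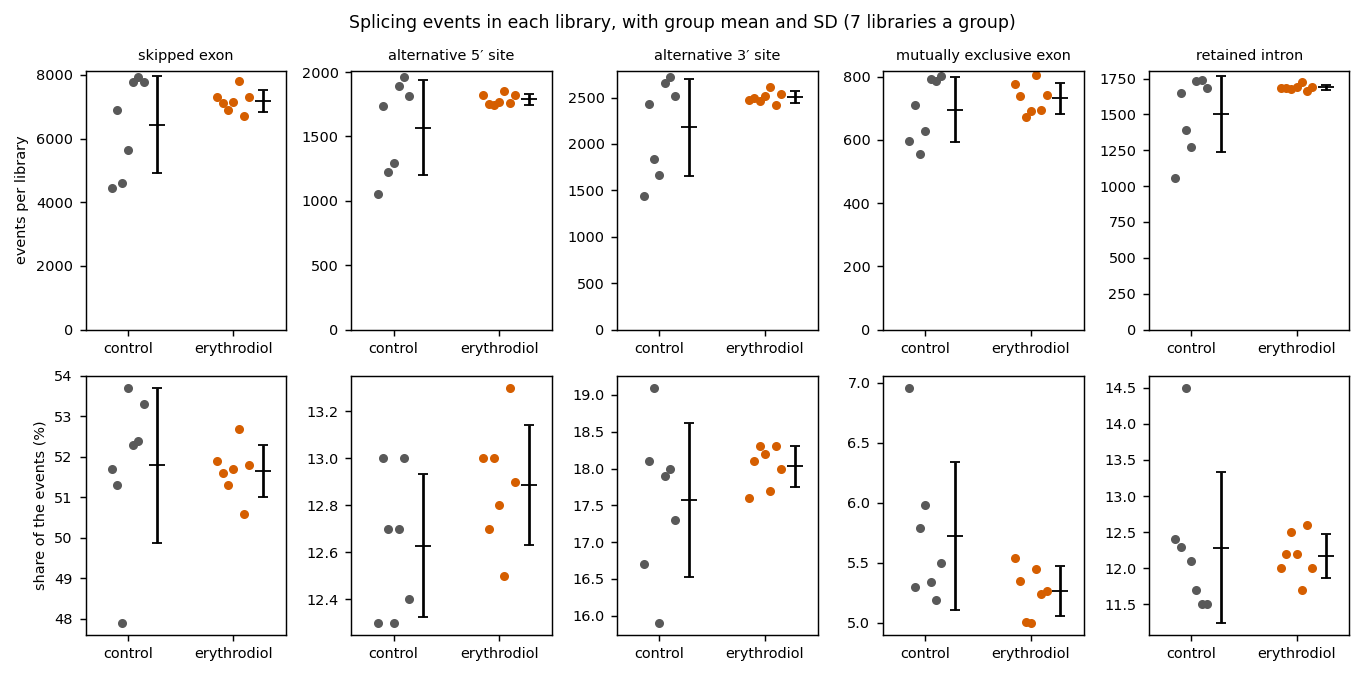
Splicing events per library of each of 5 types (upper row, number of events from 0) and their share of all events in the library (lower row, percent, axes not from 0), with 1 point per library and the mean and SD of 7 libraries beside each group. Control points spread widely, with 3 libraries low in each type, while the erythrodiol points lie close together and within the range of the control points in most panels.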

How the data were processed

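Liver RNA of 7 control and 7 erythrodiol pools was sequenced, and groups and replicate numbers came from the labels. The authors mapped reads with HISAT, assembled transcripts with StringTie and Cufflinks, and counted reads with Bowtie2 and RSEM; versions are not given in the sources used here. The deposited gene values are expected counts, 1 per gene and group and not normalized; the deposited splicing events and reads are counts per library, and the deposited mapping rates are in percent. The authors' own log2 ratios, p-values and q-values were not used.

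The members and lists were chosen with earlier results of these data known. All members could be named, except 1 that is counted in the summaries but not reported here by itself, and from each list the 2 highest and 2 lowest length-matched genes. Genes needed at least 100 counts in the groups together. Intervals were exact conditional binomial intervals at 95%. Event tests were two-sided exact permutation tests over 7 against 7 libraries, adjusted after Benjamini-Hochberg over 5 types; as libraries are separate pools by the study's methods, p-values measure the spread between pools. The comparison of new transcripts with GENCODE M21 was added after seeing the data. A planned correlation of events with depth within the control group is not given, as its libraries fell into separate clusters of under 6. Gene coordinates are those of RefSeq, GRCm38. Calculations were tested on simulated data and made with matplotlib 3.10.9, scipy 1.17.1, pandas 2.3.3 and numpy 2.4.6 under Python 3.11.15. Alternatives concerned the test, pairing, single libraries, depth, scaling, length reference, filter, pseudocount and summary.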

Additional observations from a re-analysis of the deposited data

Results flagged for a closer look

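A library was noted where its gap to the nearest library of its group was large against the whole range of the group (Dixon's criterion at 95%). This was the case 3 times in 22 groups of 7 libraries, and chance alone notes about 1 in 20 groups. Erythrodiol replicate 5 had 1729 retained intron events, with the nearest library at 1691. In control replicate 3, skipped exons made up 47.9% of the events, below the nearest library at 51.3%, and retained introns made up 14.5%, above the nearest at 12.4%. Control replicate 3 also had the lowest share of uniquely mapped reads, 41.62%, and the fewest clean reads, 34856340. The part of these values in the noted shares was not tested.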

How the results depend on the processing

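Over 272 recomputed values, 236 were counted as kept, 17 as moved and 19, all of them event results, as changed in sign. Event results were counted as kept when direction and side of the threshold stayed. Family medians were judged by size alone, so a change of sign near 0 was not counted. The snRNP median, for example, went from −0.01 to 0.07 with the 100 nearest genes by length and was counted as kept. With the libraries whose clean reads were within 1% of the median, 2 control and 7 erythrodiol, the differences in events became −1101 in total (exact permutation test, adjusted p = 0.0278), −671 for skipped exons, −138 for alternative 5′ sites, −189 for alternative 3′ sites, −56.9 for mutually exclusive exons and −47.1 for retained introns. The adjusted p was 0.0463 for both kinds of alternative site and for retained introns in that exact test. Before adjustment, p in the exact permutation test was 0.0278 for these and for the total. That is the lowest value the test can give with 2 against 7 libraries. The shares became 0.00342 points for mutually exclusive exons and 0.587 for retained introns. With libraries of at least 60% uniquely mapped reads, chosen after seeing the data, the differences were −603, −409, −62.6, −78.6, −40.6 and −12.8 in the same order, and the share of retained introns 0.412. The causes were not tested. Both settings leave out control libraries 1, 3 and 4, and the first also leaves out 2 and 7, which keeps control libraries 5 and 6, those with the highest control totals, 14834 and 15153.

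Leaving out each library in turn gave differences of 877 to 1973 events in total, 414 to 997 skipped exons, 135 to 288 and 198 to 413 alternative 5′ and 3′ sites, 13.0 to 53.8 mutually exclusive exons and 110 to 224 retained introns. Shares ranged from −0.789 to 0.172 for skipped exons (above 0 without control 4, 0.172, control 7, 0.102, or erythrodiol 6, 0.0328), from −0.25 to 0.245 for retained introns (0.245 without control 3), from −0.545 to −0.249 for mutually exclusive exons, and from 0.189 to 0.314 and 0.174 to 0.718 for alternative 5′ and 3′ sites. None passed the threshold. The exact Mann-Whitney test and events divided by clean reads or by transcripts detected changed no call.

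The deviations of same-numbered libraries correlated from −0.6 to 0.81, with 2 of 7 over 0.1. Each of these rests on only 5 event types of 1 library pair, so whether the replicate numbers pair the libraries cannot be decided from them. With the replicate block, an exact sign-flip test over 7 pairs changed 0 of 11 calls, the difference in the total stayed at 1511 (p = 0.219) and the lowest p was 0.0938. No paired analysis was possible for genes because each has 1 pooled value per group.

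For families, the median length-matched ratio was 0.02 for hnRNP, 0.16 for SR, −0.01 for snRNP, 0.07 for SF3, 0.09 for Prpf and 0.07 for all genes. With column totals alone it was 0.21, 0.21, −0.22, 0.26, 0.27 and 0.21. Relative to the median of all genes it was 0.05 for hnRNP, 0.05 for SR and −0.38 for snRNP genes. As summed counts it was 0.07 for hnRNP, 0.08 for SR, 0.10 for snRNP and 0.16 for SF3 genes, and with genes of like length and count it was 0.04 for Prpf. The 17 genes higher past the fold threshold became 4 by length and 2 against the median of all genes, and the 8 lower became 5 by length and 11 against the median of all genes. Depth limits the genes little, as counting intervals were at most 0.27 wide on the log2 scale, but the spread between pools is not seen in them.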
